A study of Homo sapiens with 6 samples.

Results

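The genes studied here encode the enzymes and regulators of cholesterol and fatty acid synthesis, in RNA-seq of OE-19 cells, a human line of adenocarcinoma of the esophagogastric junction (AEG), after knockdown of the m6A reader IGF2BP3 (IGF2BP3 KD). A fixed list of 31 gene symbols was read from the deposited table of 60480 gene identifiers, and each symbol was found on 1 row. The study compared 3 control libraries, titled shControl, with 3 libraries from cells whose IGF2BP3 was lowered by shRNA, all grown in RPMI1640 with 10% fetal bovine serum. The control libraries are also labelled Puro, and which construct they carry is not stated in the sources used here. The sources used here do not say which hairpin each IGF2BP3 KD library carries, whether the cells are a pool or a clone, or whether the replicates are separate cultures, so p-values measure the spread between these libraries, which may be technical.

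Cells make cholesterol from acetyl-CoA through mevalonate, farnesyl diphosphate, squalene and lanosterol, and fatty acids from the same acetyl-CoA through malonyl-CoA. Both branches are switched on by SREBP transcription factors, which SCAP carries from the endoplasmic reticulum to the Golgi for cleavage when sterols are scarce, and which INSIG proteins hold back when sterols are plentiful. SREBP-2, the product of *SREBF2*, acts mainly on cholesterol genes and SREBP-1, the product of *SREBF1*, mainly on fatty acid genes. RNA-seq reads the mRNA of these factors and not their cleavage.

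Total counts per library ranged from 53424071 to 69989087, after repeated identifiers were removed. *IGF2BP3*, the target of the knockdown, was at 108, 106 and 112 CPM, a count scaled to library size, in control replicates and at 14.4, 12.8 and 12.6 CPM in IGF2BP3 KD replicates, a log2 fold change of -3.03 (standard error 0.06). CPM values use TMM scaling, and edgeR's quasi-likelihood test was run on the 19778 genes with enough counts. A gene is called lower or higher where its Benjamini-Hochberg p over those 19778 genes, given below as edgeR adjusted p, was under 0.05. Intervals given below are those of single genes, without that adjustment. The 7 columnar epithelial markers summed to 18490 to 19484 CPM in control and 20179 to 20641 CPM in IGF2BP3 KD libraries. Most of this sum was *ERBB2*, with a mean of 13074 CPM in control and 14337 CPM in IGF2BP3 KD cells, called higher. *EPCAM* was also called higher, *KRT8* and *KRT18* were called lower, and *CDH1*, *KRT19* and *CLDN4* were not called. The 4 endothelial markers summed to at most 0.563 CPM. Among the 5 leukocyte markers *PTPRC* and *CD3E* had too few counts to be tested, and the list summed to 33.4 to 38.8 CPM in control and 49.4 to 54.8 CPM in IGF2BP3 KD libraries, nearly all from *CD68*, a lysosomal protein, which was called higher. The 6 fibroblast markers summed to 21.2 to 24.5 CPM in control and 29.9 to 34.4 CPM in IGF2BP3 KD libraries, nearly all from *COL1A1*, also called higher. The part of either list in the results below was not tested.

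All 31 genes had enough counts to be tested. In IGF2BP3 KD cells 10 were lower, 2 were higher and 19 were not called. The lower genes were *FDPS*, *FDFT1*, *SQLE*, *MSMO1*, *SC5D* and *DHCR7* of the cholesterol pathway, *INSIG1* of the sterol sensor, and *ACLY*, *FASN* and *SCD* of fatty acid synthesis. The higher genes were *PMVK* and *ELOVL6*. The 10 lower genes fell by 11.4% to 24.3%, and the 2 higher genes rose by 22.4% and 41.1%. The lower genes made up 32.3% of the 31, against 10.6% across the tested genes, and the higher genes 6.45%, against 9.87%. Calls are more frequent among well expressed genes, and among 9513 coding genes whose mean reached 10 CPM the lower share was 19.7% and the higher share 16.6%. Among the 29 of the 31 genes at this level these shares were 34.5% and 6.90%. The median log2 fold change of the 31 genes was -0.12, against 0.01 over all tested genes and -0.01 over the coding genes with at least 10 CPM. The 31 genes were chosen with earlier results of these data known, so these shares and medians are a description only. In bulk RNA a lower level can come from less mRNA in each cell or from fewer cells that express the gene, and these cannot be told apart.

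**Figure D1:**
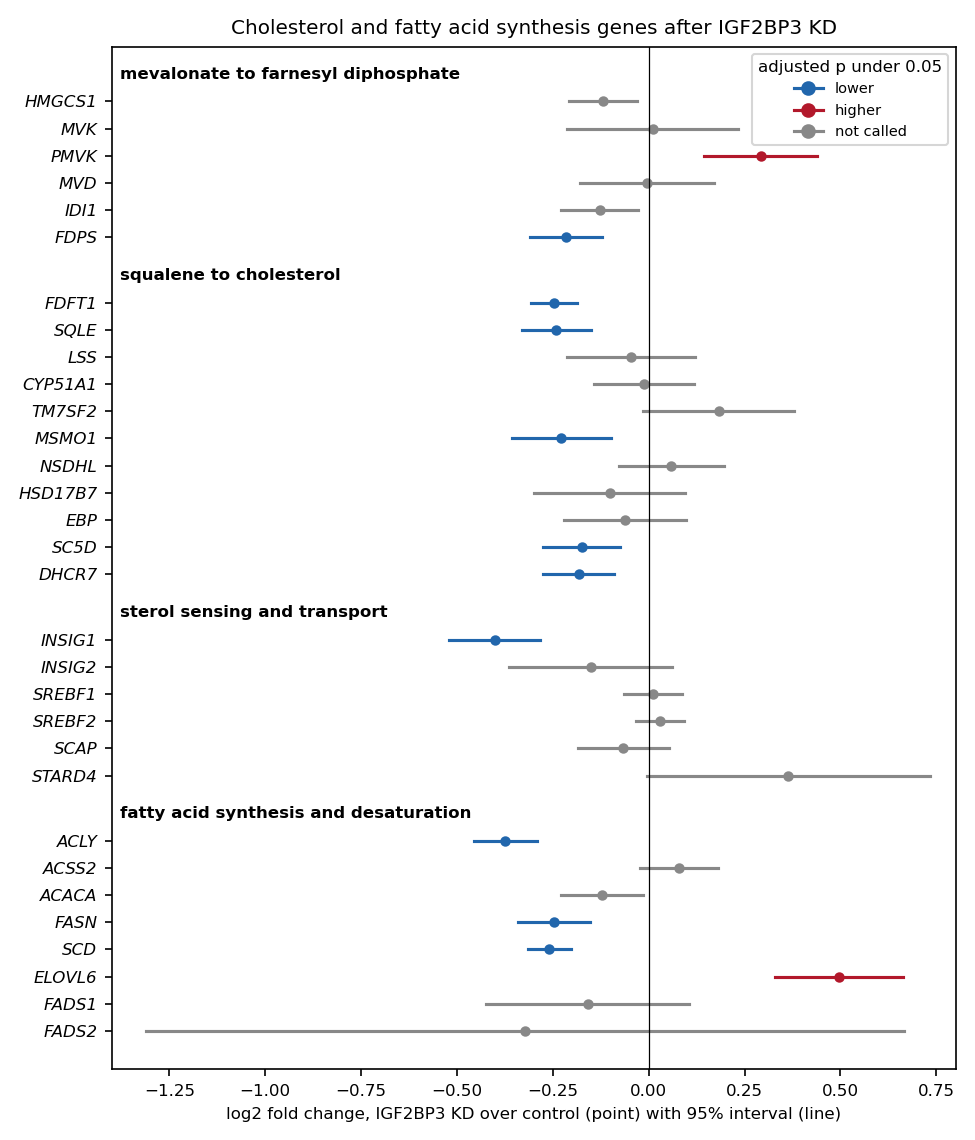
Log2 fold change of each of the 31 genes in IGF2BP3 KD over control cells (x axis), with lines for the 95% interval, and genes grouped by role (y axis). The 10 lower genes (blue) lie between -0.40 and -0.17, and the 2 higher genes (red) at 0.29 and 0.50.

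The 3 IGF2BP3 KD libraries lay below the 3 control libraries in 13 of the 31 genes, against 17.8% of all tested genes, and above them in 3 genes, against 18% of all tested genes. Such separation is more frequent among coding genes with at least 10 CPM, where they lay below in 2694 and above in 2340 of 9513 genes. The 29 of the 31 genes at this level include all 13 below and all 3 above. The genes below, other than the 10 called lower, were *HMGCS1*, *IDI1* and *ACACA*, and the gene above, other than the 2 called higher, was *ACSS2*. The median of the 31 genes relative to the control mean, on the log2 scale, was -0.09, -0.11 and -0.08 in IGF2BP3 KD replicates 1, 2 and 3, and between -0.0039 and 0.0068 in the control replicates. Over the 10 lower genes it was -0.26, -0.23 and -0.25, a description only, since genes whose libraries agree are more likely to be called. The SD between libraries was a median of 5.22% of the mean in control and 3.88% in IGF2BP3 KD cells, and it was largest for *FADS2* in both groups.

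**Figure D2:**
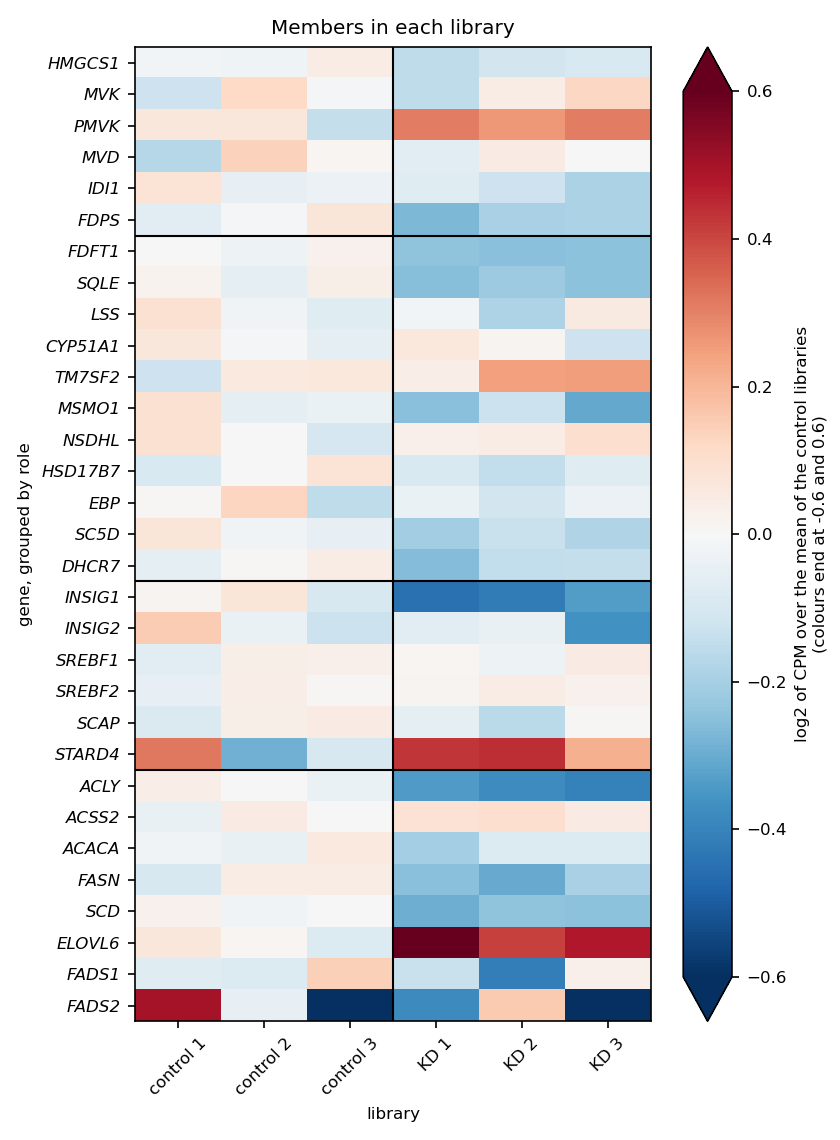
Level of each of the 31 genes (y axis) in each of the 6 libraries (x axis), as the log2 of its CPM over the mean of the control libraries (colour). *INSIG1* and *ACLY* are the deepest blue in the 3 IGF2BP3 KD libraries among the called genes, *ELOVL6* and *PMVK* are red there, and *SREBF1* and *SREBF2* are pale in the 6 libraries.

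The first steps of the pathway turn acetyl-CoA into mevalonate and then into farnesyl diphosphate, the last intermediate shared by cholesterol and the isoprenoids. Of these 6 genes 1 was lower and 1 was higher, which is 16.7% each. These shares are near the 19.7% lower and 16.6% higher among the coding genes at 10 CPM. *FDPS* (ENSG00000160752, chromosome 1, 155308748 to 155320666 of hg38), which makes farnesyl diphosphate, had 119.7, 125 and 132 CPM in control replicates and 104, 109.6 and 110.1 CPM in IGF2BP3 KD replicates. The groups did not overlap, and the log2 fold change was -0.22 (standard error 0.04, edgeR adjusted p = 0.0041). *PMVK* (ENSG00000163344, chromosome 1, 154924740 to 154936719), which adds the second phosphate to mevalonate, went the other way. It had 31.7, 31.7 and 27.4 CPM in control replicates and 37.5, 36.3 and 37.5 CPM in IGF2BP3 KD replicates, with the lowest value in control replicate 3. Its log2 fold change was 0.29 (standard error 0.07, edgeR adjusted p = 0.0096).

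The other genes of these steps were not called. *HMGCS1*, which makes HMG-CoA, had 87.1, 86.6 and 91.0 CPM in control replicates and 79.3, 81.7 and 82.7 CPM in IGF2BP3 KD replicates. Its groups did not overlap, but its log2 fold change of -0.12 (standard error 0.04) did not pass the threshold (edgeR adjusted p = 0.061). *IDI1*, the isomerase of the isoprenoid building block, had 135, 123 and 125 CPM in control replicates and 121, 117 and 112 CPM in IGF2BP3 KD replicates, a log2 fold change of -0.13 (edgeR adjusted p = 0.07). Both genes lay on the other side of the threshold with DESeq2, with adjusted p of 0.0272 for *HMGCS1* and 0.0236 for *IDI1*. *MVK*, the mevalonate kinase, and *MVD*, the decarboxylase, had groups that overlapped, and their 95% intervals on the log2 scale reached from -0.21 to 0.23 and from -0.18 to 0.17.

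From farnesyl diphosphate the pathway makes squalene, closes its rings to lanosterol and trims lanosterol to cholesterol. By edgeR, 5 of these 11 genes were called lower and 0 higher, against 19.7% and 16.6% of the coding genes at 10 CPM, and at such a share a count of 0 among 11 genes says little. The higher count was also 0 at an unadjusted p under 0.05 and with DESeq2. *FDFT1* (ENSG00000079459, chromosome 8, 11795573 to 11839395), the squalene synthase at the branch point, had 296, 289 and 301 CPM in control replicates and 250.04, 248.62 and 249.13 CPM in IGF2BP3 KD replicates. This is 296 ± 6.01 against 249 ± 0.718 CPM (SD, n = 3), and the log2 fold change was -0.25 (standard error 0.03, edgeR adjusted p = 7.3e-05). *SQLE* (ENSG00000104549, chromosome 8, 124998497 to 125022283), the squalene monooxygenase that performs the first oxygen-dependent step, had 95.2, 90.1 and 96.2 CPM in control replicates. It had 78.5, 80.6 and 79.0 CPM in IGF2BP3 KD replicates, so the groups did not overlap, and its log2 fold change was -0.24 (standard error 0.04, edgeR adjusted p = 0.0016).

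The other lower genes of this branch act in the steps from lanosterol to cholesterol. *DHCR7* (ENSG00000172893, chromosome 11, 71428193 to 71452868), whose enzyme reduces 7-dehydrocholesterol to cholesterol, had 135, 141 and 144 CPM in control replicates and 117, 126 and 127 CPM in IGF2BP3 KD replicates. Its log2 fold change was -0.18 (standard error 0.04, edgeR adjusted p = 0.01). *MSMO1* (ENSG00000052802, chromosome 4, 165327667 to 165343164), a sterol methyl oxidase, had 81.8, 73.8 and 74.6 CPM in control replicates and 64.4, 70.2 and 62.0 CPM in IGF2BP3 KD replicates. Its log2 fold change was -0.23 (standard error 0.06, edgeR adjusted p = 0.017). *SC5D* (ENSG00000109929, chromosome 11, 121292681 to 121313410), a sterol desaturase, had 90.2, 84.5 and 82.9 CPM in control replicates and 74.2, 78.2 and 75.8 CPM in IGF2BP3 KD replicates. Its log2 fold change was -0.17 (standard error 0.05, edgeR adjusted p = 0.018). The calls of *MSMO1* and *SC5D* were lost in some fits without 1 library, with folds that stayed between -0.28 and -0.18 for *MSMO1* and between -0.20 and -0.14 for *SC5D* on the log2 scale. That of *MSMO1* was lost without control replicate 1 (edgeR adjusted p = 0.052), without IGF2BP3 KD replicate 1 (0.0663) or without IGF2BP3 KD replicate 3 (0.0718), and that of *SC5D* without IGF2BP3 KD replicate 1 (0.0691) or replicate 3 (0.0552).

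The 6 genes of this branch that were not called were *LSS*, *CYP51A1*, *TM7SF2*, *NSDHL*, *HSD17B7* and *EBP*, which encode lanosterol synthase, the lanosterol demethylase, a sterol reductase, a sterol dehydrogenase, a keto-reductase and a sterol isomerase. Their groups overlapped, and their log2 fold changes lay between -0.10 for *HSD17B7* and 0.18 for *TM7SF2*. *CYP51A1* had 59.7, 56.5 and 54.9 CPM in control replicates and 59.7, 57.7 and 52.4 CPM in IGF2BP3 KD replicates. Its 95% interval on the log2 scale reached from -0.14 to 0.12, which does not reach a fall as large as that of *FDFT1*. However, most exon bases of *CYP51A1* are shared with other genes on the same strand, as given below, so its counts are uncertain. *LSS* acts directly after *SQLE*, so a gene that was not called stands next to a lower one in the chain of reactions.

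**Figure D3:**
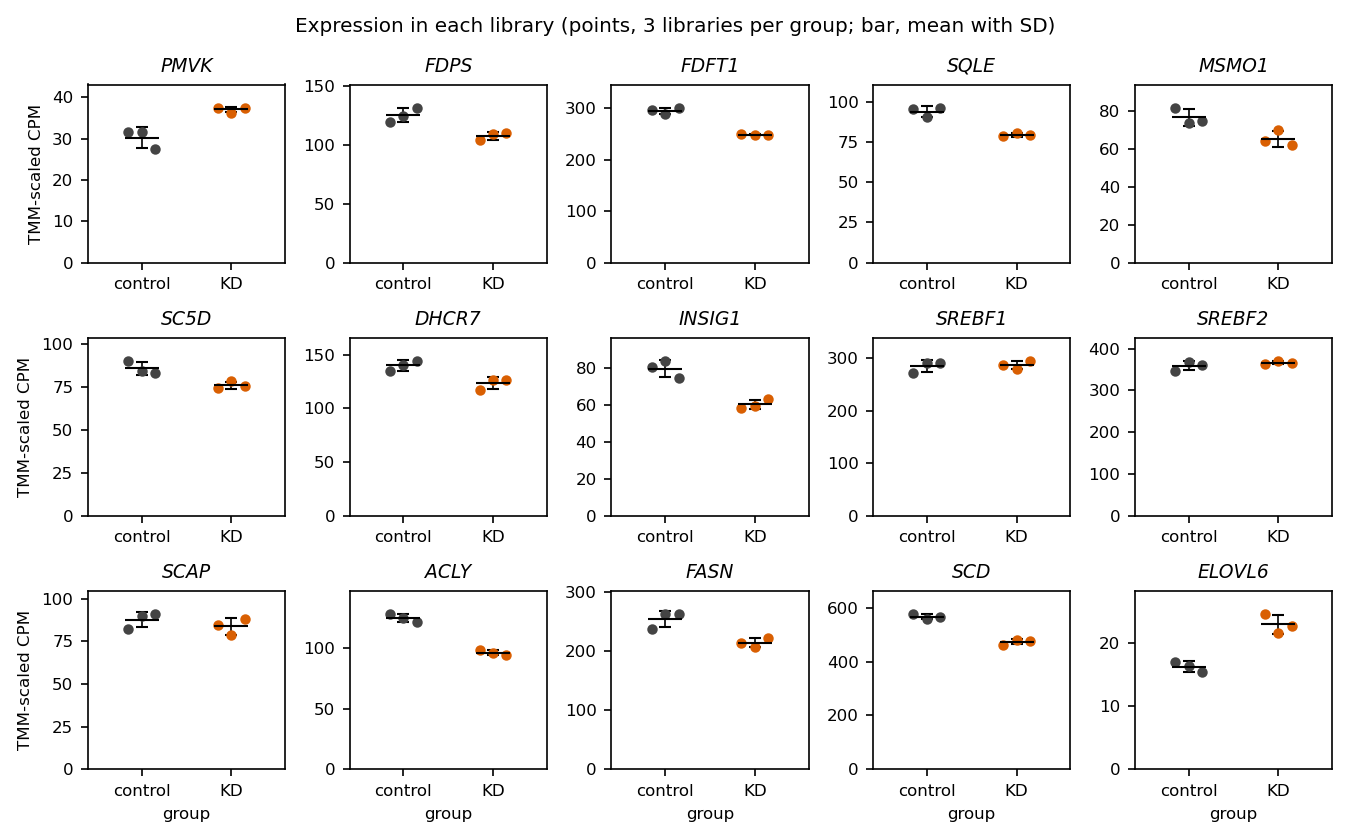
TMM-scaled CPM (y axis, from 0) of the 12 called genes and of *SREBF1*, *SREBF2* and *SCAP* in control and IGF2BP3 KD libraries (x axis). Points are libraries, bars are the mean with the SD, and the 2 groups of points do not overlap in the 12 called genes.

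Among the sterol sensor genes, *INSIG1* had the largest fall of the 31 genes that passed the test. INSIG1 holds the complex of SCAP and SREBP in the endoplasmic reticulum, and its gene is itself a well-known SREBP target. *INSIG1* (ENSG00000186480, chromosome 7, 155297776 to 155310235) had 80.7, 83.9 and 74.6 CPM in control replicates and 58.5, 59.6 and 63.1 CPM in IGF2BP3 KD replicates. This is 79.8 ± 4.73 against 60.4 ± 2.43 CPM (SD, n = 3), so it fell by 24.3%, a log2 fold change of -0.40 (standard error 0.05, edgeR adjusted p = 0.00032). *INSIG2*, the related gene, had 30.1, 26.3 and 24.8 CPM in control replicates and 25.8, 26.3 and 21.0 CPM in IGF2BP3 KD replicates. Its groups overlapped and it was not called (log2 fold change -0.15, standard error 0.10).

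The mRNAs of the factors themselves differed by less than the spread between libraries. *SREBF1* had 272, 291 and 291 CPM in control replicates and 287, 279 and 295 CPM in IGF2BP3 KD replicates, a log2 fold change of 0.01 (standard error 0.03, edgeR adjusted p = 0.88). *SREBF2* had 347, 369 and 361 CPM in control replicates and 363, 370.4 and 366 CPM in IGF2BP3 KD replicates, a log2 fold change of 0.03 (standard error 0.03, edgeR adjusted p = 0.56). Their 95% intervals on the log2 scale, from -0.07 to 0.09 and from -0.03 to 0.09, leave no room for a change as large as those of the 10 lower genes. *SCAP*, the escort of both factors, had 82.5, 89.9 and 91.0 CPM in control replicates and 84.5, 78.6 and 88.3 CPM in IGF2BP3 KD replicates, and its log2 fold change was -0.07 (standard error 0.05, edgeR adjusted p = 0.46). *STARD4*, a carrier of sterols between membranes, was low in both groups. It had 6.35, 4.18 and 4.78 CPM in control replicates and 6.87, 6.93 and 5.92 CPM in IGF2BP3 KD replicates, and its log2 fold change of 0.36 (standard error 0.17) was not called but passed the test without control replicate 1 (0.55, edgeR adjusted p = 0.0365).

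Of the 8 fatty acid genes 3 were lower and 1 was higher, which is 37.5% and 12.5%. Among the coding genes at 10 CPM these shares were 19.7% and 16.6%, and counts among 8 genes say little. *ACLY* (ENSG00000131473, chromosome 17, 41866917 to 41930542), which splits citrate to supply cytosolic acetyl-CoA to both pathways, had 128, 125 and 122 CPM in control replicates and 98.8, 96.0 and 94.3 CPM in IGF2BP3 KD replicates. It fell by 22.8%, and its log2 fold change was -0.37 (standard error 0.04, edgeR adjusted p = 3.9e-05). *FASN* (ENSG00000169710, chromosome 17, 82078338 to 82098294), which builds palmitate, had 238, 262 and 263 CPM in control replicates and 214, 206 and 222 CPM in IGF2BP3 KD replicates. Its log2 fold change was -0.25 (standard error 0.04, edgeR adjusted p = 0.0017). *SCD* (ENSG00000099194, chromosome 10, 100347233 to 100364826), the desaturase that makes monounsaturated fatty acids, had 576, 557 and 565 CPM in control replicates. It had 463, 479 and 478 CPM in IGF2BP3 KD replicates, a log2 fold change of -0.26 (standard error 0.03, edgeR adjusted p = 3.7e-05), and this was the smallest adjusted p of the 31 genes.

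*ELOVL6* (ENSG00000170522, chromosome 4, 110045846 to 110199199), which lengthens the palmitate that FASN makes, rose. It had 17.1, 16.4 and 15.4 CPM in control replicates and 24.6, 21.6 and 22.7 CPM in IGF2BP3 KD replicates. This is 16.3 ± 0.849 against 23.0 ± 1.52 CPM (SD, n = 3), a log2 fold change of 0.50 (standard error 0.08, edgeR adjusted p = 0.00076). *FASN* and *SCD*, which act on the same fatty acids, thus moved the other way from *ELOVL6*. *ACACA*, whose enzyme makes malonyl-CoA, had 82.5, 81.1 and 87.2 CPM in control replicates and 72.5, 79.0 and 78.9 CPM in IGF2BP3 KD replicates. Its groups did not overlap, but its log2 fold change of -0.12 (standard error 0.05) was not called (edgeR adjusted p = 0.11). *ACSS2*, which makes acetyl-CoA from acetate, had 57.7, 61.6 and 59.4 CPM in control replicates and 63.3, 63.9 and 61.6 CPM in IGF2BP3 KD replicates (log2 fold change 0.08, edgeR adjusted p = 0.28). *FADS1*, a desaturase of polyunsaturated fatty acids, was at -0.16 on the log2 scale (standard error 0.12), and its groups overlapped. *FADS2*, its partner, was between 0.301 and 0.818 CPM in the 6 libraries, too low to resolve a change (95% interval on the log2 scale from -1.31 to 0.67).

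Per kilobase of exon, the genes spanned a wide range in control cells, from 0.0548 CPM per kb for *FADS2* to 108 CPM per kb for *SCD*, with a median of 13.96 CPM per kb. After *SCD*, the highest levels per kb were 58.2 for *FDFT1*, 44.6 for *SREBF2*, 34.6 for *SREBF1* and 33.7 for *FDPS*. Of the 10 lower genes 9 ranked between 1 and 14 in control cells, and *SC5D* ranked 20. The 2 higher genes ranked 6 (*PMVK*, 30.2 CPM per kb) and 27 (*ELOVL6*, 2.24 CPM per kb). Exon lengths come from GENCODE v44, which may differ from the annotation the authors counted on.

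**Figure D4:**
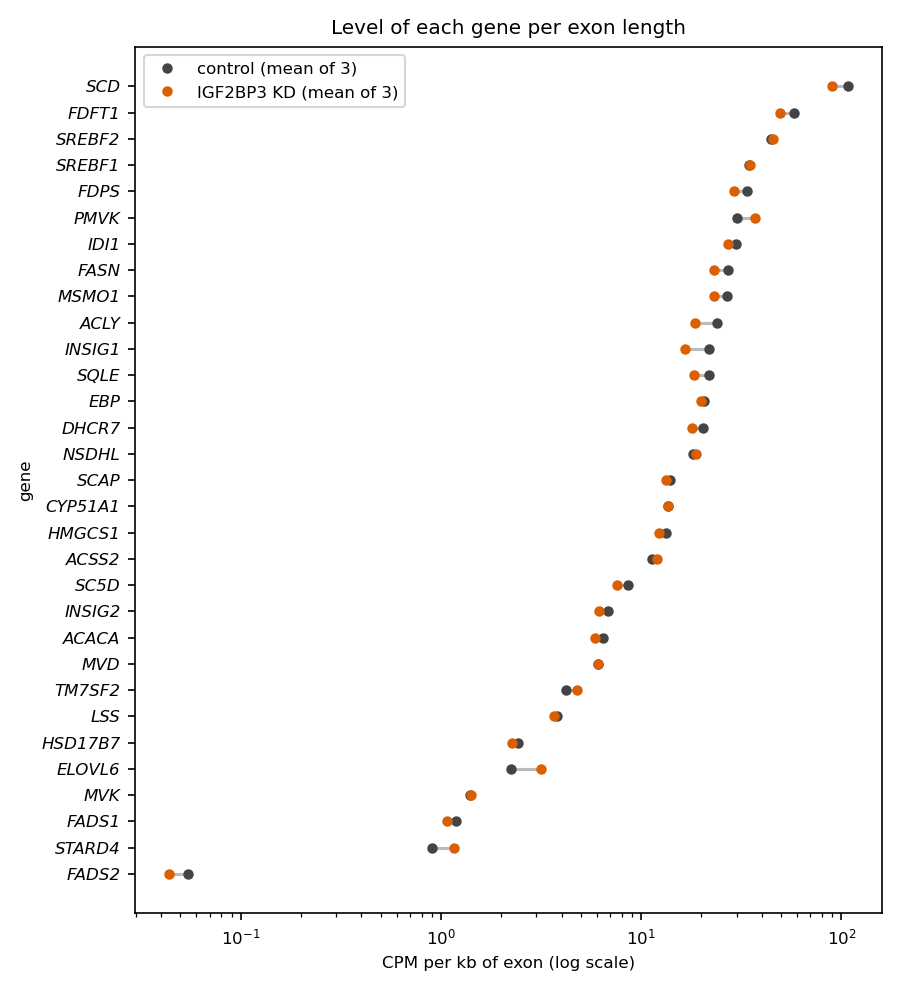
Mean level of each of the 31 genes (y axis) in control and IGF2BP3 KD cells as CPM per kb of exon (x axis, log scale), ordered by the control level. The levels run from 0.0548 for *FADS2* to 108 for *SCD* in control cells, and the paired points of most genes lie close together.

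SREBP acts on promoters together with NF-Y, which binds the CCAAT box, and SP1, which binds GC boxes. Promoter sequences of RefSeq (GRCh38.p14), each from 250 bases before to 50 bases after a start site, were matched by symbol for 28 of the 31 genes, including 7 of the 10 lower genes and both higher genes. The genes without a match were *FDFT1*, *SQLE* and *FASN*, all lower, so their promoters were not searched. Both strands were searched for CCAAT as the box of NF-Y, for GGGCGG as the box of SP1, and for TCACNCCAC as a form of the sterol regulatory element. A match describes these letters and not binding. A CCAAT was in the promoters of 21 of the 28 genes (75.0%), against 39.7% of all genes in the table and 44.01% of the coding genes with at least 10 CPM. It was in 7 of the 7 lower genes searched, in 0 of the 2 higher genes and in 14 of the 19 genes not called. Since 21 of the 28 genes hold a CCAAT, these counts among 7 and 2 genes say little. GGGCGG was in 27 of the 28 genes (96.4%), against 48.3% of all genes and 79.5% of the coding genes with at least 10 CPM. It was in 7 of the 7 lower genes searched, in both higher genes and in 18 of the 19 genes not called. Genes with several start sites have more sequence in which a match can occur.

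The CCAAT box nearest the start site of each of the 7 lower genes searched is shown because all 7 hold one, in gene orientation, with CCAAT or its complement ATTGG in capitals.
*ACLY*, chr17:41919028-41919057, minus strand: gaacgcgtgtggCCAATcgcggggccgttc
*DHCR7*, chr11:71448424-71448453, minus strand: ggtccgcctccgATTGGcaggcaatcgctg
*FDPS*, chr1:155308803-155308832, plus strand: tcccgcgggcacATTGGgagttgtagtcta
*INSIG1*, chr7:155297696-155297725, plus strand: cgccggcctcccATTGGttgcggccgcctc
*MSMO1*, chr4:165327623-165327652, plus strand: agctctcgcaggCCAATaacgacaggacgg
*SC5D*, chr11:121292703-121292732, plus strand: cgccggtcgctgATTGGctggccgctccag
*SCD*, chr10:100347035-100347064, plus strand: aattcccttcggCCAATgacgagccggagt
The capitals begin between 23 bases (*ACLY*) and 186 bases (*SCD*) before the start site.

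The sterol regulatory element TCACNCCAC was in 1 of the 28 genes (3.57%), against 1.39% of all genes. That gene is *SREBF2*, which was not called. With a looser form, TCACNCNAC, 5 genes held a match (17.9%, against 3.13% of all genes), of which *FDPS* was lower and 4 were not called. Since 7 of the 28 genes searched were lower, 1 lower gene among 5 says little. The sites are shown because they are the matches among the 28 genes, with the matched bases in capitals.
*SREBF2*, chr22:41832962-41832991, plus strand: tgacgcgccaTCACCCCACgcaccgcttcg
*FDPS*, chr1:155308716-155308745, plus strand: tgcgccatgcTCACACGACggccagcagcc
*HSD17B7*, chr1:162790594-162790623, plus strand: tcggcctatcTCACCCGACgccgtctccga
*ACSS2*, chr20:34876364-34876393, plus strand: ccttctgcttTCACTCGACggcgtcactcc
*FADS2*, chr11:61815973-61816002, plus strand: cctccagtctTCACACGACgcaggggtccc
A factor can act outside these windows, and sites in distant sequence were not searched.

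Over all tested genes, the 3′ UTR word GATTACT was held by 1072 genes, of which 376 were lower, and the word ACACATC by 1328 genes, of which 373 were higher, a pattern known before the 31 genes were chosen. On the canonical transcripts of GENCODE v44, 3 of the 31 genes hold GATTACT and 1 holds ACACATC, and none of the 12 called genes holds either. The 3 genes with GATTACT were *HMGCS1*, *ACACA* and *FADS1*, with log2 fold changes of -0.12, -0.12 and -0.16, and *STARD4* holds ACACATC with 0.36. Of the 19 genes not called 15 hold neither word. Both words are infrequent, with GATTACT in 786 and ACACATC in 939 of the 9513 coding genes at 10 CPM, so a count of 0 among 12 genes says little. The sites are shown because they are the matches among the 31 genes, with the word in capitals, in gene orientation.
*HMGCS1*, chr5:43287641-43287667, minus strand: gtggataactGATTACTcttttcatca
*ACACA*, chr17:37086263-37086289, minus strand: ctagttccagGATTACTgtcctagcag
*FADS1*, chr11:61800753-61800779, minus strand: caggtggcagGATTACTactttgcctc
*STARD4*, chr5:111499073-111499099, minus strand: gtgtacatgcACACATCtcgaaatcca

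Counts of some members are uncertain where exons overlap another gene, since the strand setting of the counting is not given in the sources used here. Of the 12 called genes, *FDPS*, *FDFT1*, *ACLY* and *ELOVL6* overlap exons on the opposite strand by 693, 217, 156 and 240 bases, and the other 8 overlap none. Among genes not called, *CYP51A1*, *EBP*, *TM7SF2*, *FADS1* and *FADS2* share exon bases with another gene on the same strand, and *HMGCS1* has the longest overlap on the opposite strand, of 2497 bases. Pseudogenes named after *FDPS* held 0.617% of its counts in 8 entries, and those named after *CYP51A1*, *HSD17B7*, *IDI1* and *SCD* held at most 0.238% of the counts of each.

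Further genes of lipid metabolism were read from 6 hand-written lists, to place the 31 genes beside their pathway. Their counts are read against the 19.7% lower and 16.6% higher among coding genes at 10 CPM. Of 10 other genes of sterol and isoprenoid synthesis 2 were lower and 2 were higher, which is 20% each and near those shares, and the higher count was 1 without any library other than control replicate 1. *ACAT2*, which makes the acetoacetyl-CoA that HMGCS1 uses, had 39.0 ± 0.99 CPM in control and 29.7 ± 1.62 CPM in IGF2BP3 KD cells (SD, n = 3), with log2 fold change -0.39 (edgeR adjusted p = 0.00076). The lower count was 1 if control replicate 2, IGF2BP3 KD replicate 1 or IGF2BP3 KD replicate 2 was left out. *NUS1* and *DHDDS*, which together form the enzyme for dolichol synthesis, were higher at 0.37 and 0.16, and they and *ACAT2* hold neither GATTACT nor ACACATC.

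Of 16 tested genes of sterol uptake, transport and esterification 5 were lower and 7 were higher. The largest falls were larger than any among the 31 genes. *VLDLR*, a lipoprotein receptor, went from 35.9 ± 1.80 to 17.7 ± 1.35 CPM (log2 fold change -1.02, edgeR adjusted p = 3.2e-06). *NPC1*, which exports cholesterol from lysosomes, went from 65.6 ± 1.36 to 34.0 ± 1.91 CPM (log2 fold change -0.95, edgeR adjusted p = 7.5e-07). *TMEM97*, an NPC1-binding protein and SREBP target, had a log2 fold change of -0.41 and holds GATTACT, while *VLDLR* and *NPC1* hold neither that word nor ACACATC.

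The machinery that cleaves and turns over SREBP had 5 lower and 2 higher genes of 11, and the higher count was 1 without any of 5 of the 6 libraries, the exception being control replicate 3. *SPRING1*, a cofactor of the first protease, went from 94.5 ± 5.31 to 60.0 ± 0.475 CPM (log2 fold change -0.65, edgeR adjusted p = 4.2e-06), and holds GATTACT. *MBTPS2*, the second protease of SREBP cleavage, went from 24.7 ± 0.958 to 15.9 ± 1.05 CPM (log2 fold change -0.64, edgeR adjusted p = 0.0001), and holds neither word. *MBTPS1*, the first protease, was not called (log2 fold change -0.05). *RNF139*, a ubiquitin ligase of the sterol sensor, was higher at 0.40 and holds neither word.

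Of 7 genes of the LXR receptors and their targets 1 was lower and 3 were higher. The higher count was 1 without IGF2BP3 KD replicate 3 and 2 without any other library. *ABCA1*, the cholesterol exporter, went from 8.13 ± 0.514 to 13.2 ± 0.834 CPM (log2 fold change 0.70, edgeR adjusted p = 0.00039) and holds ACACATC. *NR1H3*, the gene of LXR-alpha, was higher at 0.33, a call that was lost without IGF2BP3 KD replicate 3 (edgeR adjusted p = 0.0546), and it holds neither word. *MYLIP*, a ligase that removes lipoprotein receptors, was lower at -0.55 and holds GATTACT.

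Of 29 tested genes of other fatty acid and glycerolipid synthesis 6 were lower and 6 were higher, and the lower count was 3 without control replicate 3. *GPAM*, which starts glycerolipid synthesis, went from 20.2 ± 1.48 to 10.0 ± 1.25 CPM (log2 fold change -1.01, edgeR adjusted p = 4.5e-05). *ME1*, malic enzyme, a source of NADPH for fatty acid synthesis, went from 155 ± 4.80 to 114 ± 2.13 CPM (log2 fold change -0.44, edgeR adjusted p = 9.3e-06). *LPIN2* was lower at -0.54, and it and *GPAM* hold GATTACT while *ME1* does not. Of 21 tested genes of fatty acid oxidation 2 were lower and 9 were higher, and the lower count was 1 without IGF2BP3 KD replicate 2 or 3. *PPARA*, the receptor that drives oxidation genes, was higher at 0.46. *PPARGC1A*, a coactivator of these genes, was lower at -0.36. *PPARA* and *PPARGC1A* each hold both GATTACT and ACACATC. The median log2 fold change of the oxidation genes was 0.17, against -0.20 of the 8 fatty acid synthesis and desaturation genes, and whether the lists differ was not tested.

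**Figure D5:**
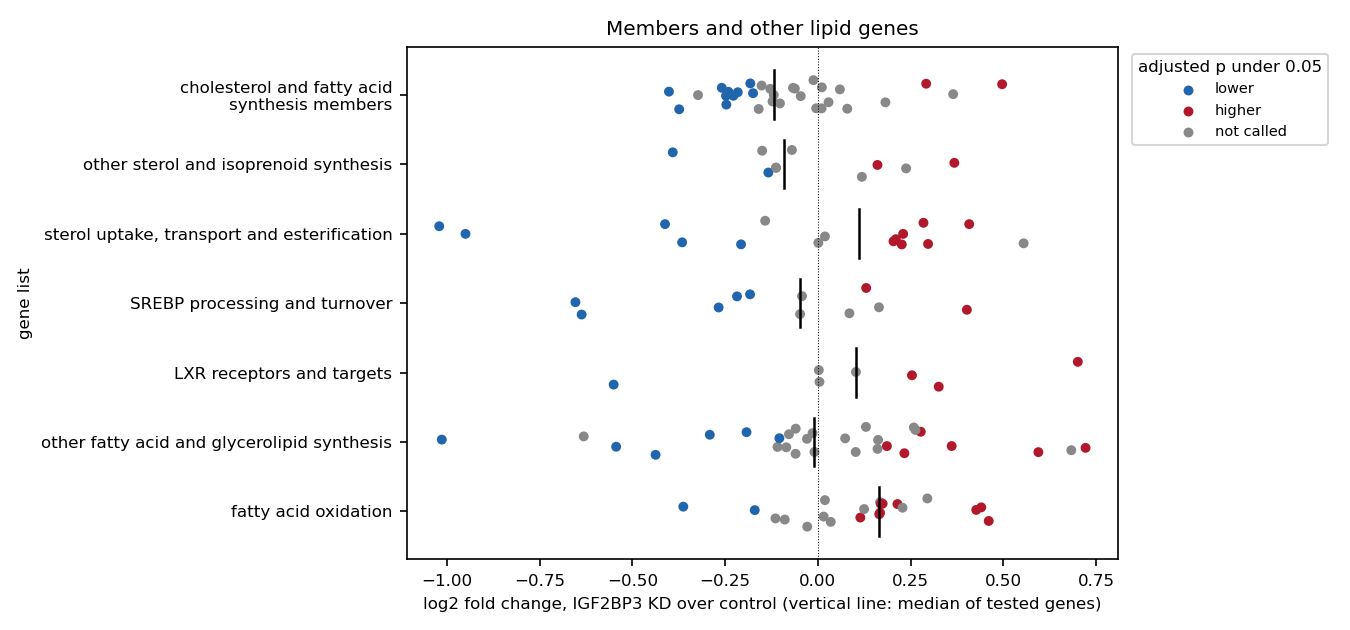
Log2 fold change in IGF2BP3 KD over control cells (x axis) of the 31 genes and of the tested genes of 6 further lists (y axis), a point for each gene, coloured by its call, with a vertical line at the median. The median is -0.12 for the 31 genes and 0.17 for fatty acid oxidation, and the falls beyond -0.9 are *VLDLR*, *NPC1* and *GPAM*, outside the 31 genes.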

How the data were processed

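Counts per gene were deposited by the authors without normalization. Per the study's methods, poly(A) RNA of OE-19 cells was prepared with a directional kit, sequenced with paired reads of 150 bases, aligned to hg38 with hisat2 and counted with featureCounts. The submitters' processing notes also name fastp. Versions, annotation release and strand setting are not given in the sources used here.

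Of 60480 identifiers 44 were repeated, and their 132 extra entries were dropped. No library duplicates another: chi-square per degree of freedom, where the mean count reached 50, was 9.86 to 17.6 within groups. The test was edgeR 4.0.16 under R 4.3.3, with TMM scaling, filterByExpr (min.count 10, min.total.count 15), glmQLFit and glmQLFTest, no replicate block, and 19778 genes. The script was tested on simulated data. Intervals use the standard error and the test's degrees of freedom. With 3 libraries per group, an exact two-sided permutation test of a single value cannot go below 0.1.

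The members and lists were chosen with earlier results of these data known. All members are named. Values in each library are given for called members, *SREBF1*, *SREBF2* and *SCAP* by rule, and for 7 other members chosen after their values were seen, and from each list the 3 genes with the smallest p are named. Some genes that this rule names are not reported here. *DHDDS* and *MBTPS1* were named after their values were seen. Alternatives were DESeq2 1.42.0, RLE scaling, other count filters, a replicate block, leaving out single libraries, and a looser promoter motif. Positions, exon lengths and 3′ UTRs come from GENCODE v44 on hg38, and promoters from RefSeq. Figures used matplotlib 3.10.9 in Python 3.11.15.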

Additional observations from a re-analysis of the deposited data

How the results depend on the processing

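Of the 31 genes, 10 to 12 were lower and 2 were higher under RLE scaling, DESeq2, other count filters and the replicate block. *HMGCS1* and *IDI1* were also called with DESeq2 and with at least 10 counts in every library. With each library left out in turn, 8 to 10 genes were lower, 2 to 3 were higher, and the median log2 fold change lay between -0.135 and -0.0816. In these 6 fits the counts of other sterol synthesis genes were 1 to 2 lower and 1 to 2 higher, of SREBP processing genes 1 to 2 higher, of LXR genes 1 to 2 higher, of other fatty acid genes 3 to 6 lower, and of oxidation genes 1 to 2 lower. Without a count filter 1 SREBP processing gene was higher. The looser promoter motif TCACNCNAC was in 5 genes, and the stricter one in 1, as its construction allows. The cause of the other shifts was not tested. Deviations from the group means of libraries with the same replicate number correlated at -0.0295, -0.0924 and -0.0771 over 14289 genes. Those of libraries with different numbers correlated at -0.00739 to 0.0839. No pairing by number is visible, but these values cannot show whether such libraries were prepared together. With the replicate number as a block 11 of the 31 genes were lower, *IDI1* being added, and 2 were higher. *FADS2* had 19 to 56 counts per library, which limits its precision.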
